A study of Homo sapiens with 4 samples.

Results

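The complement and coagulation genes were examined in SUM149PT cells, a line established from an inflammatory breast cancer, after knockdown of EMP2, a small tetraspan membrane protein of epithelial cells. The 45 members were chosen by gene symbol for their role in either system: 25 act in complement and 20 in blood clotting. All 45 are among the 25343 genes of the deposited table. Of these, 25 reached 1 CPM (reads scaled to a common library size, by the TMM method) in at least 2 of the 4 libraries and were tested, and 20 did not. The EMP2 knockdown group is 2 libraries of cells stably infected with a lentivirus carrying a short hairpin RNA (shRNA) construct, labelled Sh911 in both. The vector control group is 2 libraries of cells stably infected with a control shRNA lentivirus, labelled Shctrl. Both groups were grown in Ham's F12K medium with serum, insulin and hydrocortisone. The knockdown is thus 1 construct in 1 cell line. Whether the libraries of a group were separate cultures is not in the labels. The p-values therefore reflect a spread between samples that may be purely technical.

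Complement is a cascade of secreted proteases and their substrates. Its classical, lectin and alternative pathways meet at C3, whose fragment C3b marks surfaces and feeds an amplification loop built by factor B and factor D. Membrane regulators keep that loop, and the pore that ends the cascade, off a cell's own surface. Coagulation starts when tissue factor on a cell surface meets factor VII, and it ends in fibrin; its proteases also signal to cells through protease-activated receptors. The liver makes most of the circulating proteins of both systems, while epithelial and tumour cells are known to make C3, membrane regulators and tissue factor themselves.

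The libraries held 13360907 to 13874599 reads in the knockdown and 13387914 to 14647053 reads in the controls, as recovered from the CPM values. EMP2 itself stood at 23.0 and 22.6 CPM in knockdown libraries, against 126.1 and 124.6 CPM in control libraries (log2 change -2.43, SE 0.051). Across all genes 2269 were called higher and 2294 lower of 13661 tested. Epithelial markers (EPCAM, CDH1, KRT5, KRT14, KRT8 and KRT18) summed to 3251 and 3258 CPM in knockdown libraries and 2875 and 2909 CPM in control libraries. They did not move together: CDH1, KRT8 and KRT18 were called higher (log2 changes 0.39, 0.23 and 0.19) and KRT14 lower (-1.07). EPCAM and KRT5 were not called. The 6 hepatocyte markers summed to at most 0.359 CPM in the knockdown and 0.415 CPM in the controls, with TTR at 0 and none tested. The 6 monocyte and leukocyte markers summed to 18.1 to 20.0 CPM in the knockdown and 16.9 to 19.6 CPM in the controls, with CD163 and TYROBP at 0. Most of that sum was CSF1R, at 11.6 and 11.7 CPM in knockdown libraries and 9.75 and 11.4 CPM in control libraries. PTPRC had at most 4 reads in any library. The 6 platelet markers summed to 9.29 to 9.97 CPM and 9.24 to 10.8 CPM in knockdown and control libraries, with TREML1 at 0. The 6 endothelial markers summed to 1.80 to 2.15 CPM and 2.57 to 3.11 CPM in knockdown and control libraries. The 6 fibroblast markers summed to 87.2 and 87.3 CPM in knockdown libraries, against 114.0 and 114.1 CPM in the controls. COL1A2 was at 0, and nearly all of the sum was DCN (log2 change -0.79, called lower) and COL1A1 (0.14, not called). The part of these markers in the results was not tested. In bulk RNA, fewer cells that express a gene and less of its RNA per cell cannot be told apart.

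Knockdown cells had more mRNA of complement factor I (CFI), of C4, of tissue factor (F3) and of the protease inhibitor TFPI2. Both C4 genes, C4A and C4B, were called, but how reads were split between these near-identical copies is uncertain. The C4B call was lost in some settings. Knockdown cells had less mRNA of factor B (CFB), factor D (CFD) and C3, and slightly less of the surface regulators CD55 and CD59 and of C1QBP. In all, 5 of the 25 tested members were called higher, where 16.6% of all tested genes were, and 6 were called lower, where 16.8% were (limma, Benjamini-Hochberg adjusted p under 0.05 over all 13661 genes). The 11 called members are 44.0% of those tested, beside 33.4% of all genes, and nothing particular to the members is read from that share. The median log2 change of the 25 tested members was 0.17, beside 0.0037 for all tested genes. In 20 of the 25 both knockdown libraries lay on the same side of both controls, which held for 65.6% of all tested genes. Complement and coagulation differed in their counts: 3 of 16 tested complement members were higher and 6 lower, and 2 of 9 tested coagulation members were higher and 0 lower. That difference in counts was not tested. All log2 changes are knockdown minus control of log2(CPM + 0.5), which makes changes of weakly expressed genes look smaller than they are. With 2 libraries against 2, an exact permutation test of a single gene could not give a two-sided p below 0.333, so calls rest on the limma fit, which moderates the spread of each gene toward that of genes of like abundance.

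**Figure D1:**
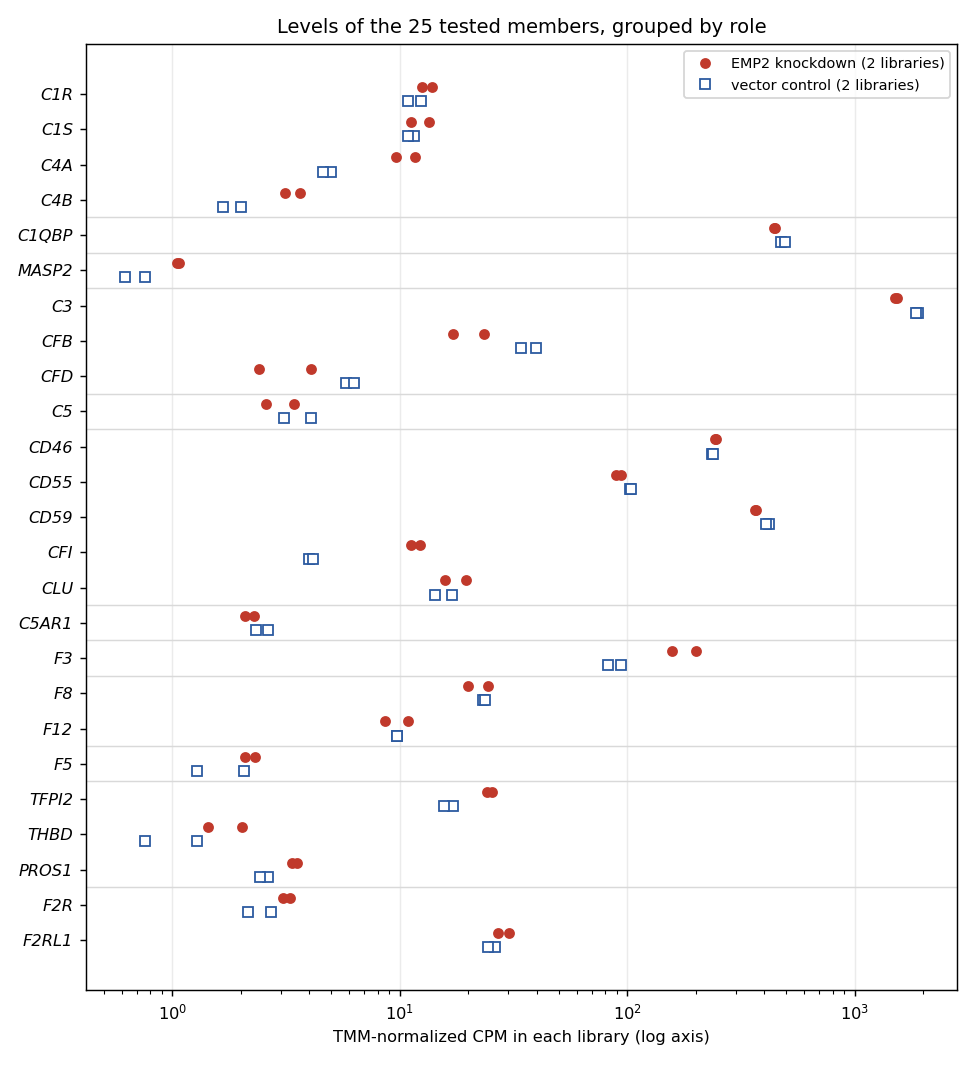
Level of each of the 25 tested members in each library, in TMM-normalized CPM on a log axis, with rows grouped by role; filled circles are EMP2 knockdown libraries and open squares are vector control libraries. The values span 0.623 to 1898 CPM, and C3 is the most abundant, at 1513 and 1537 CPM in the knockdown and 1855 and 1898 CPM in the controls.

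**Figure D2:**
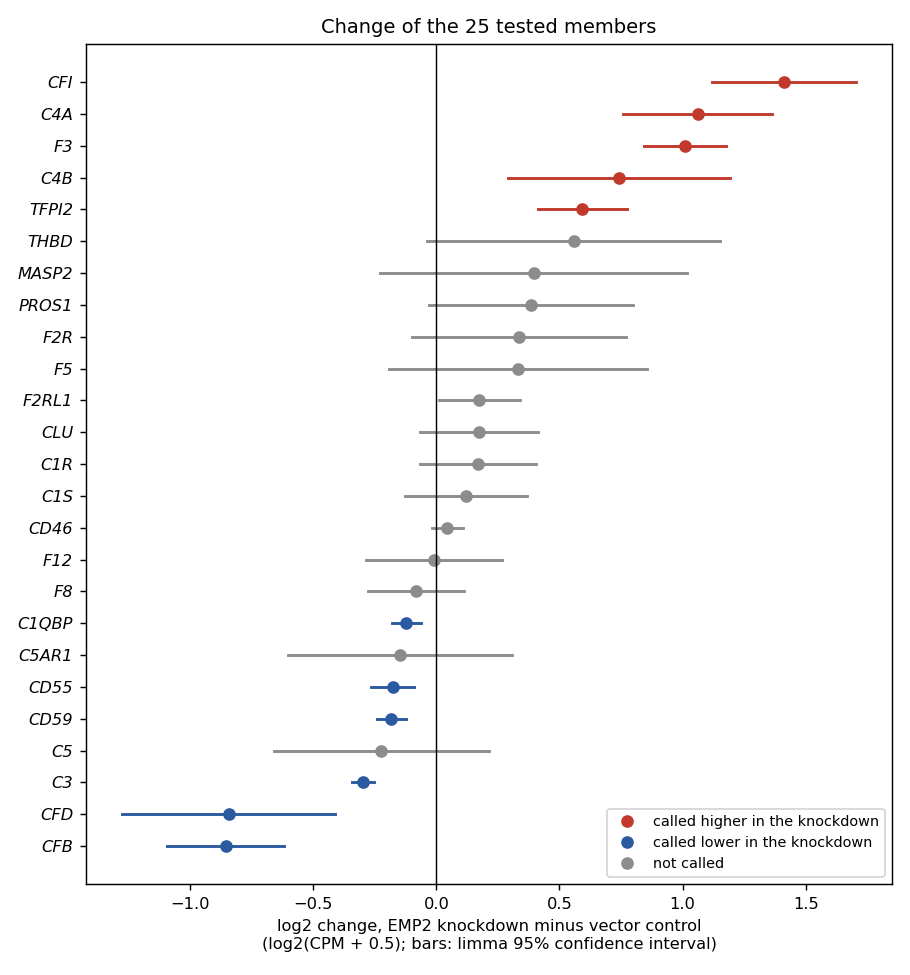
Log2 change (knockdown minus control) of the 25 tested members with limma 95% confidence intervals, ordered by size; red marks the 5 called higher, blue the 6 called lower and grey the 14 not called. CFI has the largest rise (1.41) and CFB the largest fall (-0.86), with CFD close to it (-0.84).

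The levels of the members differed widely. Per kilobase of exon (all exons of a gene merged, GENCODE 29), C1QBP and C3 led: C1QBP averaged 190.7 CPM per kb in the knockdown and 207.5 CPM per kb in the controls, and C3 averaged 183.1 and 225.3 CPM per kb. In the knockdown libraries C1QBP lay above C3, and in the control libraries below it, with no overlap between the libraries in either group. F3 came next in the knockdown with 62.3 CPM per kb, above CD59 at 35.3 and CD46 at 28.0. In the controls the order was CD59 at 40.0, F3 at 30.7 and CD46 at 27.2 CPM per kb. CD55 followed at 15.5 and 17.5 CPM per kb in knockdown and control cells. The protease-activated receptor F2RL1, TFPI2 and CFB lay between 4.08 and 9.71 CPM per kb, and every other member was at or below 4.95 CPM per kb in both groups. C3 alone gave 49.7% and 50.3% of the summed CPM of all members in knockdown libraries and 55.8% and 54.9% in control libraries. The lengths come from an annotation that may differ from the one used for counting, so these levels hold only to that extent.

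Promoters are shown for F3, TFPI2 and CFI, which rose, and for CFB, which had the largest fall in log2(CPM + 0.5). In mean CPM CFD fell slightly further, to 0.536 of the control mean against 0.551 for CFB. Each promoter shown runs from 250 bases before to 50 bases after a RefSeq start site (GRCh38.p14), on the gene's own strand. Capitals mark matches, on either strand, to 7 motifs: the TATA box (TATAAA), Sp1 (GGGCGG), AP-1 (TGANTCA), STAT (TTCNNNGAA), the interferon-stimulated response element (GAAA, any 2 bases and GAAA again), the core of the cyclic AMP response element (TGACG) and NF-kB. F3 lies at chr1:94541710-94542009 (minus), TFPI2 at chr7:93890704-93891003 (minus), CFI at chr4:109801950-109802249 (minus) and CFB at chr6:31945845-31946144 (plus).
F3: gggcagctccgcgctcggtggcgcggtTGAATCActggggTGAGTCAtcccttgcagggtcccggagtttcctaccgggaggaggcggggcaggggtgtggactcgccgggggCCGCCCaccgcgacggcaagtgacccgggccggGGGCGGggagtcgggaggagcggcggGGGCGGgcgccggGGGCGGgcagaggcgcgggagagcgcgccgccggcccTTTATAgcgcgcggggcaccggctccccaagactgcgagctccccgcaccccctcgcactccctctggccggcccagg
TFPI2: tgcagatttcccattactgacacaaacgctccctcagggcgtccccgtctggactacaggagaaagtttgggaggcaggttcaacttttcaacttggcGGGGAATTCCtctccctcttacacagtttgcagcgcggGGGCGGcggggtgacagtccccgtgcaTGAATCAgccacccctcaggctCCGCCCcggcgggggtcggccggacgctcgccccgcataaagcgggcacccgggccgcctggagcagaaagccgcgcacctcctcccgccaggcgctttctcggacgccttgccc
CFI: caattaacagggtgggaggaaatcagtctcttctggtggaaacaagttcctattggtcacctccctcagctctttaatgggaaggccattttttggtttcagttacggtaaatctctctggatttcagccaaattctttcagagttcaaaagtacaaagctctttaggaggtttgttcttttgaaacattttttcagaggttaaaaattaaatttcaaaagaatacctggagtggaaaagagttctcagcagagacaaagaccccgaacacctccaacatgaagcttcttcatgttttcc
CFB: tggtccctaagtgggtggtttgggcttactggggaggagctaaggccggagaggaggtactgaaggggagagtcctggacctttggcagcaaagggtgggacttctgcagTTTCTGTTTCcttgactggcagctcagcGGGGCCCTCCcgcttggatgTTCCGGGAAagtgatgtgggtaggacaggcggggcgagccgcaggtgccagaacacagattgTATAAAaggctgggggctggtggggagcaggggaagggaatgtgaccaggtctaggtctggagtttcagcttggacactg

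The F3 window holds 2 AP-1 matches, the first beginning at base -223 and the second at base -210 from the start site, 4 Sp1 matches and a TATA box on the opposite strand. The TFPI2 window holds 1 AP-1 match, 2 Sp1 matches and 1 NF-kB match. F3 and TFPI2 both carry an AP-1 motif, which 7.71% of the 35116 promoters of the table have; so does CD59, which fell, with 3 matches in 1 of its promoters. The CFI window has none of the 7 motifs, and its GC content is 39.3%, against 77.3% for F3, 65.3% for TFPI2 and a median of 58.7% over all promoters. The CFB window holds a TATA box, a STAT match, an NF-kB match and an interferon-stimulated response element. These motifs occur in 11.5%, 7.66%, 11.3% and 3.57% of all promoters; Sp1 occurs in 45.0% and the cyclic AMP element core in 24.6%. Among tested members, STAT matches also occur in CD59, which fell, and in C1R, MASP2, PROS1 and F2RL1, which were not called. NF-kB matches also occur in TFPI2, which rose, and in F8, which was not called. No matches overlap within the 4 windows. A match is a description of the letters and not evidence of binding.

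The classical pathway opens with C1R and C1S, the proteases of the C1 complex, of which C1S cleaves C4 and C2. C1R was at 13.8 and 12.5 CPM in knockdown libraries and 10.9 and 12.4 CPM in control libraries, and C1S at 13.4 and 11.2 CPM against 11.6 and 10.9 CPM. Neither passed the test (log2 changes 0.17 and 0.12). Their ratio within a library was 1.03 and 1.12 in the knockdown and 0.946 and 1.14 in the controls; the genes are 9.17 kb apart on chromosome 12, and part of C1R (11.4% of its exon length) is shared with its neighbour C1RL. The products of C4A and C4B are substrates of C1S. C4A stood at 11.6 and 9.59 CPM in knockdown libraries, against 4.98 and 4.62 CPM in control libraries. C4B stood at 3.66 and 3.15 CPM in knockdown libraries, against 2.01 and 1.67 CPM in control libraries. For both genes every knockdown library was above every control.

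C4A rose 2.21-fold in mean CPM (10.6 ± 1.44 against 4.80 ± 0.255 CPM, SD, n = 2 each; log2 change 1.06, SE 0.14, limma adjusted p = 2.07e-05). C4B rose 1.85-fold (log2 change 0.74, SE 0.21, limma adjusted p = 0.0125). The C4B call rests on 51 and 42 reads in knockdown libraries and 29 and 22 reads in control libraries. It was lost with DESeq2, without knockdown replicate 1 (log2 change 0.65) and without control replicate 2 (0.64). C4A and C4B are near-identical copies 12.1 kb apart in the MHC region of chromosome 6 (GRCh38, C4A from 31982024 to 32002681 and C4B from 32014795 to 32035418), so how reads were split between them is uncertain. Summed, they came to 15.3 and 12.7 CPM in knockdown libraries and 6.99 and 6.29 CPM in control libraries. C4A took 76.1% and 75.3% of their reads in the knockdown and 71.3% and 73.5% in the controls. C2, the other substrate of C1S, was at or below 0.502 CPM in every library and was not tested.

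C1QBP encodes a mostly mitochondrial protein that also binds the globular heads of C1q. It was at 446.2 and 444.3 CPM in knockdown libraries, against 473.1 and 496.0 CPM in control libraries. This is a fall to 0.919 of the control mean (log2 change -0.12, SE 0.028, limma adjusted p = 0.00266). The call was lost without control replicate 2 (log2 change -0.087) and with limma without the abundance trend. Of the lectin pathway proteases, which do for mannose-binding lectin and ficolins what C1R and C1S do for C1q, MASP2 was at 1.08 and 1.05 CPM in knockdown libraries and 0.623 and 0.757 CPM in controls. It passed the filter through the knockdown libraries alone and was not called (log2 change 0.40), except as higher with limma without the abundance trend. MASP1 was not tested; it had 4 reads in each knockdown library and 1 and 0 reads in the controls.

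Of the 4 members of the alternative pathway, C3 included, 3 were tested and all 3 were called lower, beside 16.8% of all tested genes. CFB, whose product is the catalytic part of the alternative pathway C3 convertase, stood at 23.5 and 17.2 CPM in knockdown libraries, against 39.8 and 34.1 CPM in control libraries. CFD, the serine protease that cleaves factor B, stood at 4.09 and 2.40 CPM in knockdown libraries, against 5.81 and 6.29 CPM in control libraries. C3, the shared substrate of all pathways, stood at 1537 and 1513 CPM in knockdown libraries, against 1898 and 1855 CPM in control libraries. None of the 3 overlapped between groups, and neither did 65.6% of all tested genes. The knockdown libraries differed more from each other for CFB and CFD than for C3.

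CFB fell to 0.551 of the control mean (20.4 ± 4.46 against 37.0 ± 4.08 CPM, SD, n = 2 each; log2 change -0.86, SE 0.11, limma adjusted p = 1.46e-05). CFD fell to 0.536 of the control mean (log2 change -0.84, SE 0.20, limma adjusted p = 0.00399). Its call was lost with DESeq2 and without knockdown replicate 2, where the log2 change was -0.51, against -1.18 without knockdown replicate 1. C3 fell to 0.813 of the control mean (1525 ± 16.9 against 1876 ± 30.5 CPM, SD, n = 2 each; log2 change -0.30, SE 0.021, limma adjusted p = 1.02e-08). C3 ranked 32nd by mean CPM among tested genes in the knockdown and 24th in the controls, and with quantile scaling, which ties values to their rank, its log2 change was -0.15, still called. The ratio of C3 to CFB in CPM, which is not corrected for gene length, was 65.3 and 87.8 in knockdown libraries and 47.6 and 54.4 in control libraries. CFB is annotated on chromosome 6 from 31945650 to 31952084, where it overlaps C2 by 23 bases. It shares 45.0% of its exon length with an overlapping gene annotated on the same strand (AL645922.1). AL645922.1 also shares 32.9% of the exon length of C2, and its symbol is not among the deposited genes. With the counting rule unknown, reads of CFB and of AL645922.1 cannot be told apart. Properdin (CFP), the stabiliser of the same convertase, had at most 1 read in any library.

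Of the terminal pathway, C5, the precursor of the anaphylatoxin C5a and of C5b, was at 2.58 and 3.45 CPM in knockdown libraries and 3.11 and 4.09 CPM in control libraries. The groups overlapped and C5 was not called (log2 change -0.22). The pore components below it were near or at 0. C6 had 0 reads in all libraries, which allows up to 0.208 to 0.227 CPM (3 reads, counting error only), and C7 and C8G stayed at or below 8 reads.

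Among regulators the fluid-phase protease CFI, which cuts C3b and C4b with the help of cofactors, had the largest rise of all members. It stood at 12.3 and 11.2 CPM in knockdown libraries, against 4.01 and 4.17 CPM in control libraries. The groups were far apart and the libraries within each close together. CFI rose 2.87-fold (11.7 ± 0.783 against 4.09 ± 0.108 CPM, SD, n = 2 each; log2 change 1.41, SE 0.14, limma adjusted p = 5.66e-07), on 171 and 149 reads in the knockdown and 58 and 55 reads in the controls. It lies on chromosome 4 from 109740694 to 109802179 (GRCh38, minus strand). There 32.0% of its exon length is shared with an overlapping gene annotated on the same strand (AC126283.2), whose symbol is not among the deposited genes.

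The membrane regulators were abundant and changed little. CD59, which blocks assembly of the membrane pore, was at 367.3 and 363.3 CPM in knockdown libraries, against 420.9 and 408.5 CPM in control libraries (log2 change -0.18, SE 0.027, limma adjusted p = 5.97e-05). CD55, which speeds decay of the C3 convertases, was at 89.7 and 93.6 CPM in knockdown libraries, against 102.9 and 104.4 CPM in control libraries (log2 change -0.18, SE 0.041, limma adjusted p = 0.00318). CD59 fell to 0.881 and CD55 to 0.884 of the control mean. CD46, the membrane cofactor of factor I, was at 245.3 and 242.9 CPM in knockdown libraries and 235.7 and 238.0 CPM in control libraries and was not called (log2 change 0.043, 95% confidence interval -0.020 to 0.11). Summed, the 3 came to 702.3 and 699.8 CPM in knockdown libraries, against 759.5 and 750.8 CPM in control libraries. CD55 lost its call with DESeq2, and CD55, CD59, CFB and CFD lost theirs with limma without the abundance trend. Clusterin (CLU), a chaperone that binds the terminal complex, was at 19.6 and 15.8 CPM in knockdown libraries and 17.0 and 14.2 CPM in control libraries, with overlap; it was not called (log2 change 0.17), and was called only without knockdown replicate 2 (0.32).

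Receptors for complement fragments were low. C5AR1, the C5a receptor, was at 2.30 and 2.10 CPM in knockdown libraries and 2.63 and 2.35 CPM in control libraries and was not called (log2 change -0.15). C3AR1, the C3a receptor, had 7 reads in each knockdown library and 16 and 12 in the controls, below the filter. The C3b and C3d receptors CR1 and CR2 had at most 3 and 13 reads. CD55, CR2, CR1 and CD46 lie in that order in one cluster on chromosome 1, CD55 67.4 kb before CR2 and CD46 110.3 kb after CR1. The outer genes of that cluster were abundant and the inner ones were not.

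**Figure D3:**
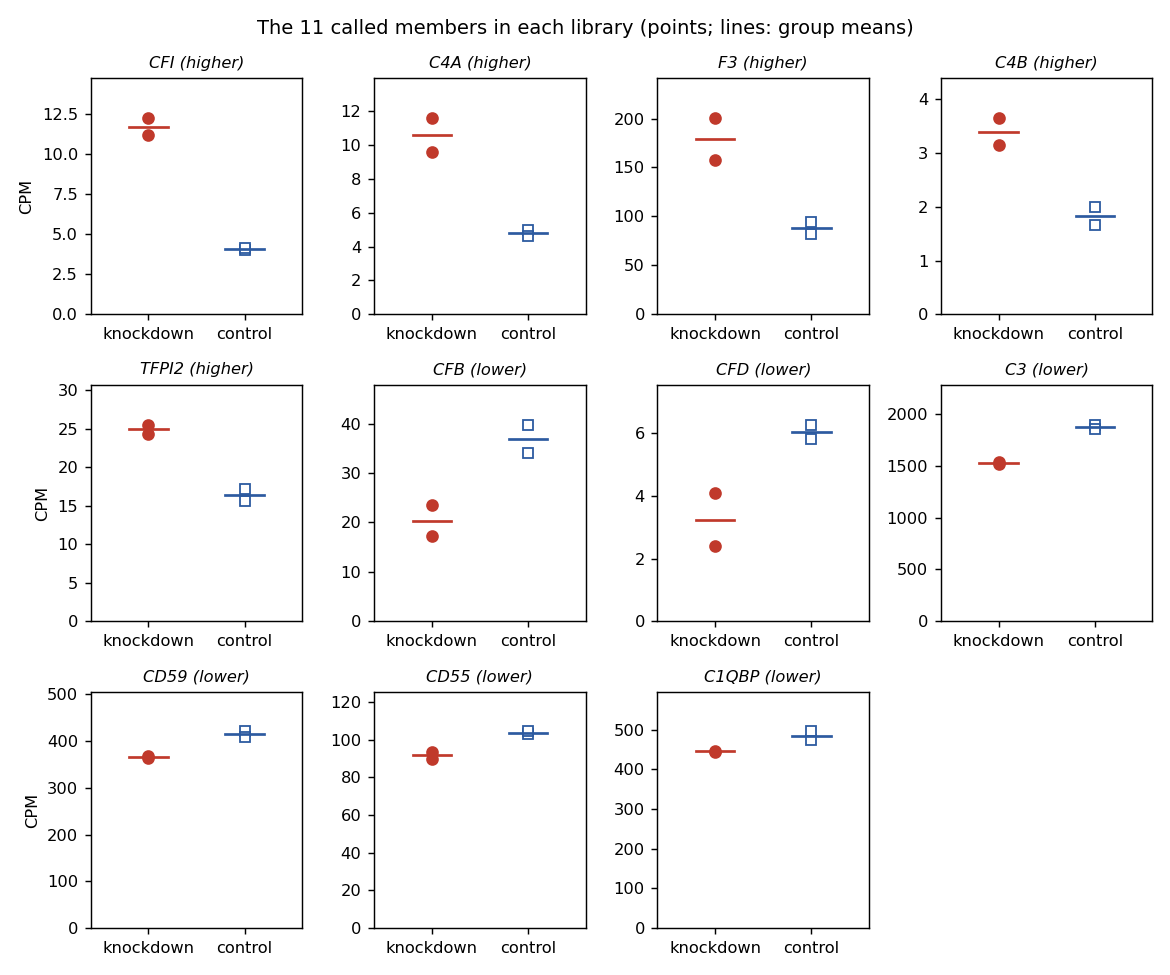
CPM of each of the 11 called members in every library; points are libraries, lines are group means, knockdown is at the left and control at the right, and each axis starts at 0. The groups do not overlap for any of the 11, and they do not overlap for 65.6% of all tested genes. The knockdown points of F3, CFB and CFD are spread more widely than those of C3, CD59 and C1QBP.

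Tissue factor (F3), the surface receptor that starts coagulation with factor VII, was the most abundant coagulation member and rose. It stood at 200.8 and 157.4 CPM in knockdown libraries, against 82.4 and 94.1 CPM in control libraries. Both knockdown values were above both controls, and they were also far from each other. F3 rose 2.03-fold (179.1 ± 30.7 against 88.3 ± 8.30 CPM, SD, n = 2 each; log2 change 1.01, SE 0.079, limma adjusted p = 4.21e-08). The SE of F3 is moderated toward genes of like abundance and does not measure the spread of F3 alone. With limma without the abundance trend the adjusted p was 0.0355. The log2 change lay between 0.83, with knockdown replicate 1 left out, and 1.18, with knockdown replicate 2 left out. The gap between the knockdown libraries was 0.35 on the log2 scale; of the 2441 genes averaging 100 CPM or more, 0 had a larger gap between these libraries, and the median gap was 0.034. F3 took 68.1% and 60.7% of the summed CPM of the 20 coagulation members in knockdown libraries and 49.1% and 53.3% in control libraries. It lies on chromosome 1 from 94529225 to 94541800 (GRCh38, minus strand). Its partner F7 had 0 reads in all libraries.

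The common and intrinsic pathway factors did not pass the test or the filter. Factor VIII (F8), the cofactor of factor IX, was at 19.9 and 24.6 CPM in knockdown libraries and 23.2 and 23.8 CPM in control libraries, and its log2 change was -0.083. Factor XII (F12), the contact-phase protease, was at 10.9 and 8.62 CPM in knockdown libraries and 9.75 and 9.77 CPM in control libraries (log2 change -0.0092); 14.4% of its exon length overlaps GRK6 on the other strand. Factor V (F5), the cofactor of factor X, was at 2.08 and 2.32 CPM in knockdown libraries and 2.08 and 1.29 CPM in control libraries (log2 change 0.33). F11 and F13A1, the genes of factor XI and of the fibrin cross-linking chain of factor XIII, had 0 reads in all libraries. F10, FGB and FGG, the genes of factor X and of fibrinogen chains, had at most 6 reads. VWF, the carrier of factor VIII, had 10 reads in each knockdown library and 5 and 4 in the controls.

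Of the inhibitors, TFPI2, a Kunitz-type inhibitor of plasmin and other matrix-degrading proteases, rose. It stood at 24.3 and 25.5 CPM in knockdown libraries, against 17.2 and 15.6 CPM in control libraries. The groups did not overlap. TFPI2 rose 1.52-fold (24.9 ± 0.865 against 16.4 ± 1.10 CPM, SD, n = 2 each; log2 change 0.59, SE 0.086, limma adjusted p = 4.31e-05). It lies on chromosome 7 from 93885396 to 93890991 (GRCh38, minus strand). TFPI, the inhibitor of the tissue factor and factor VIIa complex itself, had at most 3 reads in any library. The ratio of F3 to TFPI2 in CPM was 8.26 and 6.16 in knockdown libraries and 4.80 and 6.03 in control libraries, and the knockdown replicate 2 and control replicate 2 values lay next to each other.

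The protein C system, which shuts off factors V and VIII, was low. Thrombomodulin (THBD), the receptor that turns thrombin to protein C, was at 1.43 and 2.02 CPM in knockdown libraries and 0.761 and 1.29 CPM in control libraries. Protein S (PROS1), the cofactor of protein C, was at 3.37 and 3.52 CPM in knockdown libraries and 2.63 and 2.42 CPM in control libraries. Both lay above the controls without passing the test: THBD had a log2 change of 0.56 (95% confidence interval -0.037 to 1.15) and PROS1 of 0.38 (-0.029 to 0.80). PROS1 was called higher only with limma without the abundance trend. PROC, protein C itself, and A2M, the broad protease inhibitor alpha-2-macroglobulin, had at most 3 reads.

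Of the protease-activated receptors, which thrombin or trypsin-like proteases switch on by cutting them, F2RL1 (PAR2) was at 27.1 and 30.3 CPM in knockdown libraries and 26.4 and 24.4 CPM in control libraries. F2R (PAR1) was at 3.09 and 3.30 CPM in knockdown libraries and 2.14 and 2.73 CPM in control libraries. Neither was called (log2 changes 0.18 and 0.34), although the groups did not overlap for either; F2RL1 was called only without knockdown replicate 1 (0.25). F2RL2 (PAR3), 92.6 kb from F2R on chromosome 5, had at most 4 reads.

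Of the 20 members below the filter, 4 had 0 reads in every library (C6, F7, F11 and F13A1), and the highest single value among the 20 was the 1.11 CPM of C3AR1 in control replicate 1. Fitted with no filter on low values, MASP1 alone of these passed the test (log2 change 0.57); the size of that change is set by the pseudocount, since the controls had 1 and 0 reads.

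Related genes were taken from 5 lists. Of 44 tested genes in these lists 14 were called higher and 9 lower, beside 16.6% and 16.8% of all genes, with a median log2 change of 0.039. Of 35 other complement genes only 6 were tested, 0 were called higher and 2 lower. C1RL, a C1r-like protease, fell to 58.0 and 55.5 CPM in knockdown libraries, against 69.5 and 69.5 CPM in controls (log2 change -0.29, limma adjusted p = 0.000187). C5AR2, the second C5a receptor, fell to 2.87 and 2.55 CPM in knockdown libraries, against 5.05 and 5.30 CPM in controls (log2 change -0.82, limma adjusted p = 0.00177). The 3 C1q chains, C4BPA, C8A, C8B and C9 had 0 reads.

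Of 11 tested genes of the rest of coagulation and fibrinolysis 2 rose and 2 fell, beside 16.6% and 16.8% of all tested genes. SERPINE2, an inhibitor of thrombin and urokinase, fell to 58.7 and 54.5 CPM in knockdown libraries, against 162.4 and 158.1 CPM in controls (log2 change -1.49, SE 0.045, limma adjusted p = 3.69e-13). The plasminogen activators PLAT and PLAU rose, PLAT to 72.0 and 68.0 CPM in knockdown libraries, against 41.4 and 45.5 CPM in controls, and PLAU to 35.4 and 26.2 CPM against 13.2 and 9.84 CPM (log2 changes 0.68 and 1.38). The higher of the knockdown values of PLAU was in replicate 1, as for F3. The controls of PLAU differed in that order too, and those of F3 in the opposite order. BDKRB1, a kinin receptor, fell (log2 change -0.68, limma adjusted p = 0.0219). The endothelial protein C receptor PROCR was not called (0.14), and F2, F9, FGA and PLG had at most 2 reads.

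Genes that mature and export clotting factors changed by small amounts: 5 of 10 rose and 1 fell. Among all tested genes 16.6% were called higher and 16.8% lower. ASPH, which hydroxylates EGF-like domains, rose to 218.5 and 220.8 CPM in knockdown libraries, against 168.2 and 174.9 CPM in controls (log2 change 0.36). MCFD2, a cargo receptor subunit for factors V and VIII, rose by 0.28, the proprotein convertase FURIN by 0.14, the vitamin K epoxide reductase paralogue VKORC1L1 by 0.14 and the gamma-carboxylase GGCX by 0.14 on the log2 scale. POGLUT1, which adds O-glucose to EGF-like domains, fell by 0.38. Their limma adjusted p lay between 3.33e-07 for ASPH and 0.0179 for GGCX.

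Of 10 genes that set phosphatidylserine on the cell surface, where clotting complexes assemble, 5 rose and 3 fell. Among all tested genes 16.6% were called higher and 16.8% lower, and the list was not tested against these shares. The scramblase ANO6 rose to 174.3 and 185.2 CPM in knockdown libraries, against 142.6 and 134.3 CPM in controls (log2 change 0.38). The flippase ATP11A, which works the other way, rose by 0.34 and the caspase-activated scramblase XKR8 by 0.50 on the log2 scale. MFGE8, a bridge to phosphatidylserine with domains like those of factors V and VIII, fell to 25.5 and 26.3 CPM in knockdown libraries, against 39.6 and 38.2 CPM in controls (log2 change -0.58), and PLSCR1 fell by 0.28. The limma adjusted p of these named genes lay between 1.49e-06 for ANO6 and 0.000797 for XKR8. PLSCR3 was at 14.3 and 29.1 CPM in the knockdown and 31.0 and 7.27 CPM in the controls and was not called; the libraries of each group differed widely.

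The last list holds other Gla proteins, which like several clotting factors carry vitamin K-dependent residues, and the TAM receptors that bind protein S and GAS6. Of its 7 tested genes 2 rose and 1 fell, beside 16.6% and 16.8% of all tested genes. MGP, matrix Gla protein, fell to 75.8 and 65.5 CPM in knockdown libraries, against 143.4 and 150.1 CPM in controls (log2 change -1.05, limma adjusted p = 2.62e-10). The receptors TYRO3 and AXL rose by 0.27 and 0.18 on the log2 scale (limma adjusted p = 0.0073 and 0.00768). Their ligand gene GAS6 was at 130.4 and 130.2 CPM in knockdown libraries and 129.3 and 129.6 CPM in controls and was not called (0.0090).

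**Figure D4:**
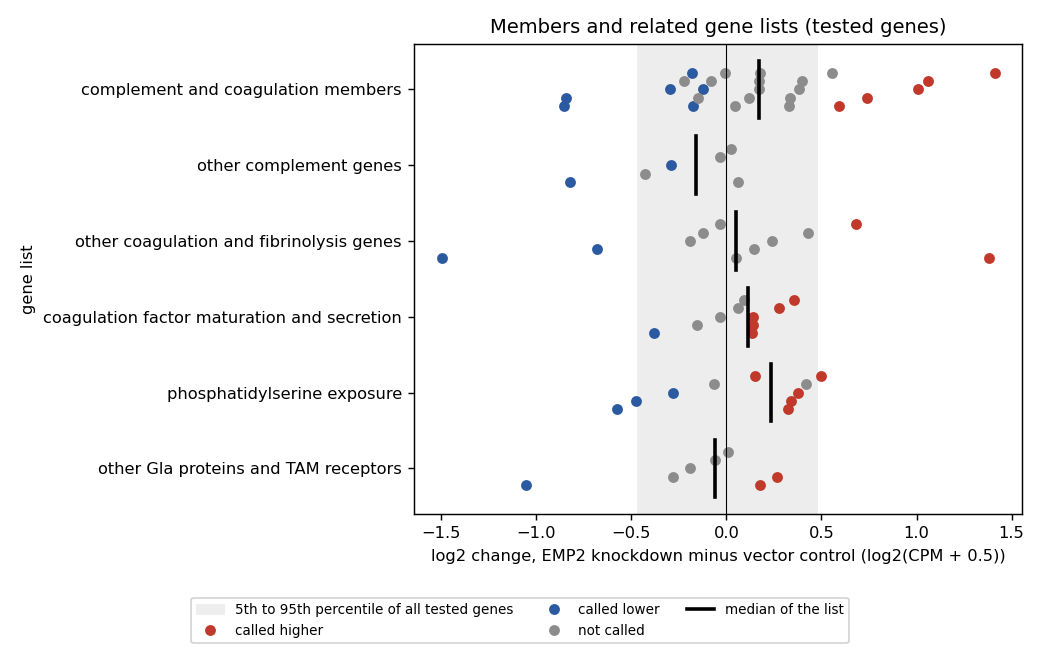
Log2 change (knockdown minus control) of each tested gene among the members and the 5 related lists; red is called higher, blue called lower, grey not called, the black bar is the median of the list and the grey band spans the 5th to 95th percentile of all tested genes (-0.47 to 0.48). The farthest members of the lists are SERPINE2 (-1.49), MGP (-1.05), C4A (1.06), PLAU (1.38) and CFI (1.41).

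Of the 11 called members, C4A, C3, CFI, F3 and TFPI2 were called in the same direction under every setting in which they were fitted. The other 6 lost their call in at least 1 setting.

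**Figure D5:**
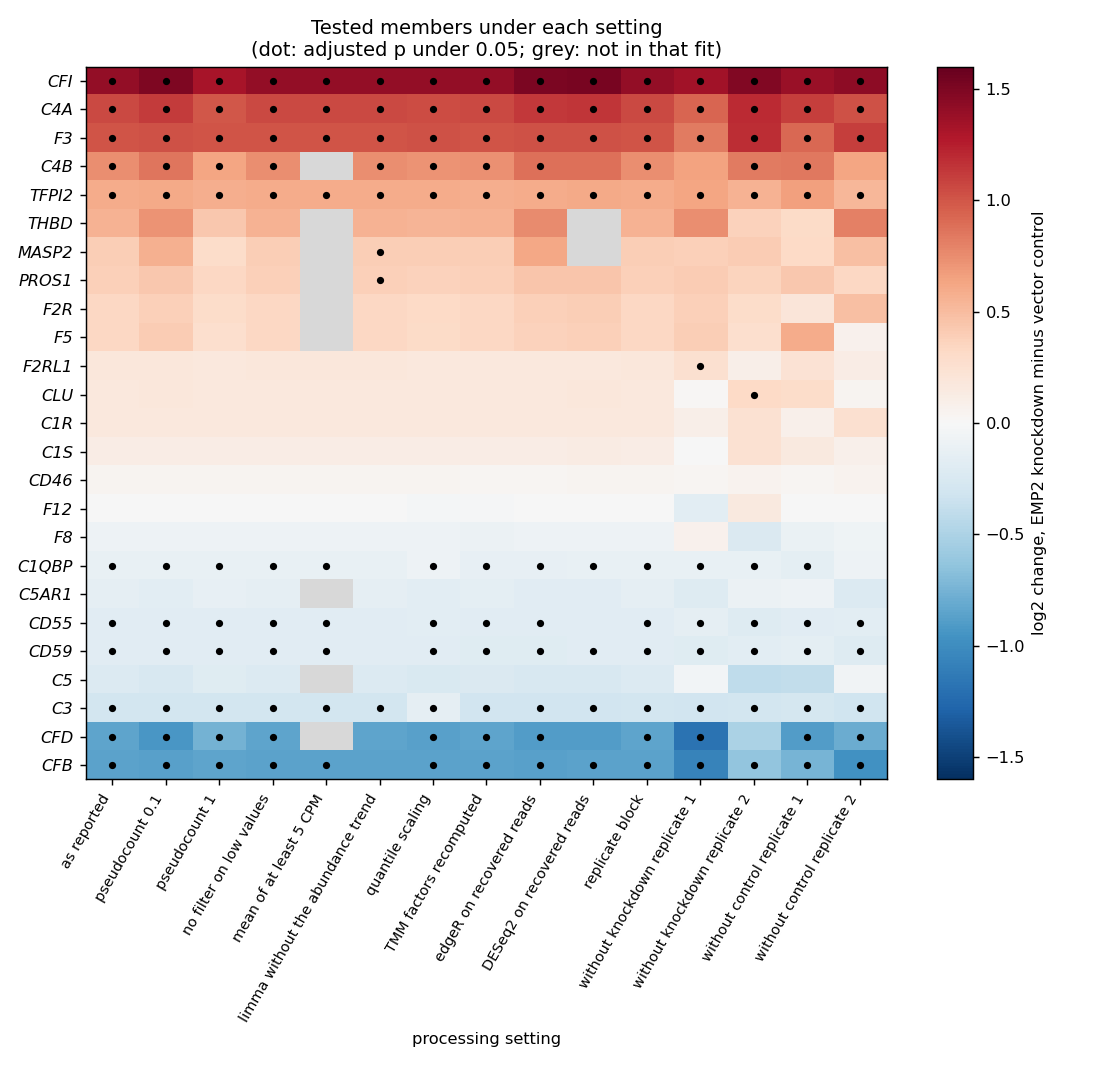
Log2 change of the 25 tested members (rows) as reported and under 14 other settings (columns); colour is the log2 change, a dot marks an adjusted p under 0.05 and grey a gene that was not in that fit. The rows of CFI, C4A, F3, TFPI2 and C3 are dotted throughout, and limma without the abundance trend leaves C3 as the only member called lower.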

How the data were processed

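RNA of 4 libraries was measured by RNA-seq, per the labels' protocols from 1 µg of total RNA depleted of ribosomal RNA, as single reads of 50 bases. STAR, bcl2fastq 2.17, GRCh38 and DESeq2 are named, per the submitters' processing notes. The sources used here do not say how reads were assigned to genes, or with which annotation or strand rule; overlapping genes cannot be told apart. The authors deposited TMM-normalized CPM per gene, which are not corrected for length. In each library 100% of values were whole multiples of the smallest step, to within 0.1 read, which gave back whole reads; 1 read was worth 0.0692 to 0.0757 CPM, and limits from read counts cover counting error only.

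Genes reaching 1 CPM in 2 or more libraries were tested two-sided with limma 3.58.1 under R 4.3.3, with values as log2(CPM + 0.5), a prior variance that follows abundance, with Benjamini-Hochberg adjustment over all tested genes; adjusted p under 0.05 was called. edgeR 4.0.16 (quasi-likelihood) and DESeq2 1.42.0 on the recovered reads, and other settings, were alternatives. The test was checked on simulated data in which the altered genes changed at least 2-fold. Smaller changes, such as those of C3, CD55, CD59 and C1QBP, were not simulated. Members and lists were chosen with earlier results of these data known. Named were EMP2, all members, and up to 6 called genes of each related list by adjusted p; a few genes of these lists are not reported here. Coordinates and exon lengths are from GENCODE 29 (45 of 45 members matched by symbol), and promoters from RefSeq (35 of 45 members). Motifs were searched on both strands.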

Additional observations from a re-analysis of the deposited data

How the results depend on the processing

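With limma without the abundance trend 916 genes were called higher and 1016 lower, 1 member was called lower (C3) and 7 higher (MASP2 and PROS1 added), and 7 genes of the related lists higher. With DESeq2 993 genes were called higher and 1181 lower, and 9 genes of the related lists higher and 5 lower; it gave no adjusted p for MASP2 and THBD. The 5 members called higher were 4 to 7, and the 6 called lower 1 to 6, over all 14 settings. No called member and no called gene of the related lists changed direction, and the median log2 change of all genes lay between -0.00243 and 0.00744. Of the 23 genes called in the related lists, 12 kept their call in every setting in which they were fitted; C5AR2, BDKRB1, GGCX, VKORC1L1, MCFD2, FURIN, POGLUT1, PLSCR4, TMEM30A, AXL and TYRO3 lost it in at least 1. The replicate numbers do not pair the libraries by any label, and the deviations of same-numbered libraries from their group means were uncorrelated (r = -0.00295 over 13661 genes). With the replicate number as a block 2162 genes were called higher and 2180 lower, 5 members higher and 6 lower, and 14 and 9 genes of the related lists. Fits without 1 library assume that the lone sample of a group varies like the other group. Genes with few reads, such as MASP1, VWF and C3AR1, were fitted only with no filter on low values.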
